A study of Mus musculus with 8 samples.

Results

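The genes described here encode respiratory complexes III, IV and V of the inner mitochondrial membrane, together with cytochrome c. They were chosen by name: every probe whose gene name begins with Uqcr, Cox4, Cox5, Cox6, Cox7, Cox8 or Atp5, or is Cyc1 or Cycs, with names marked as pseudogenes left out. This gave 68 probes for 45 genes, of 56599 probes for 36608 genes used in all, with 10 genes for complex III and cytochrome c, 18 for complex IV and 17 for complex V. Expression was measured on 1-colour Agilent arrays in cells that carry CD11b, the integrin of microglia and other myeloid cells, sorted with magnetic beads from the brains of male C57BL/6N mice aged 7 days. One group was taken 24 h after lipopolysaccharide (LPS, the endotoxin of Gram-negative bacteria) and the other 24 h after saline. Each group had 4 tubes, each tube pooled the brains of 2 mice given the same treatment, and each tube gave 1 array. The sort selects on 1 surface protein and so does not separate microglia from other CD11b+ cells, and the dose and route of LPS are not given in the sources used here.

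Complex III passes electrons from ubiquinol to cytochrome c, complex IV passes them from cytochrome c to oxygen, and complex V, the ATP synthase, uses the proton gradient that the others build to make ATP. Most subunits are encoded in the nucleus and imported, while cytochrome b, the catalytic core of complex IV and a pair of ATP synthase subunits are encoded in mitochondrial DNA. Mouse macrophages in culture are known for a shift towards glycolysis after LPS, and several complex IV subunits have additional isoforms typical of heart, muscle, lung or testis.

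The subunit genes of all 3 complexes rose together after LPS. Of the 45 genes, 43 were well above background on at least 4 of the 8 arrays and were tested. Cox8c and Cox7b2, the testis isoforms of subunits 8 and 7B, were well above background on 0 and 1 arrays and were not tested. Among the 43, 38 were higher after LPS, 2 were lower (Cox7a2l and Cox6b2) and 3 did not pass the test (Uqcrh, Cox7a1 and Cox8b). The median change was 0.65 on the log2 scale, LPS minus saline, with a range of -0.65 to 1.21. Calls are from limma with Benjamini-Hochberg adjustment over 22512 genes at a threshold of 0.05. Over all genes tested, 49.3% passed, 27.8% higher and 21.5% lower, and the median change was 0.02. In 34 of the 43 genes every LPS array lay above every saline array, against 25.8% of all genes tested. In 0 of them did every LPS array lie below every saline array, against 18.9% of all genes tested. The changes were modest in size, and only Cycs and Atp5g1 reached 2-fold. These are bulk samples, so a different number of cells of a type and a different amount of RNA per cell cannot be told apart.

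Members are bright on these arrays, with 36 of the 43 among the top 10% of genes by signal. Bright genes as a whole also rose: of the 955 genes at or above the median signal of the members, 534 were higher and 82 lower, with a median change of 0.34. In 449 of the 955 every LPS array lay above every saline array, and in 83 every LPS array lay below. The 955 include the brighter members. That set was chosen after the data were seen. The size of the members' change depended on how the arrays were scaled. With quantile normalization the median was 0.32, with 33 genes higher and 3 lower, and with each array's median signal as a covariate it was 0.35, with 31 higher and 1 lower. Of the 38 genes called higher, 30 were called higher under each of the 20 alternatives other than the splits by slide row.

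**Figure D1:**
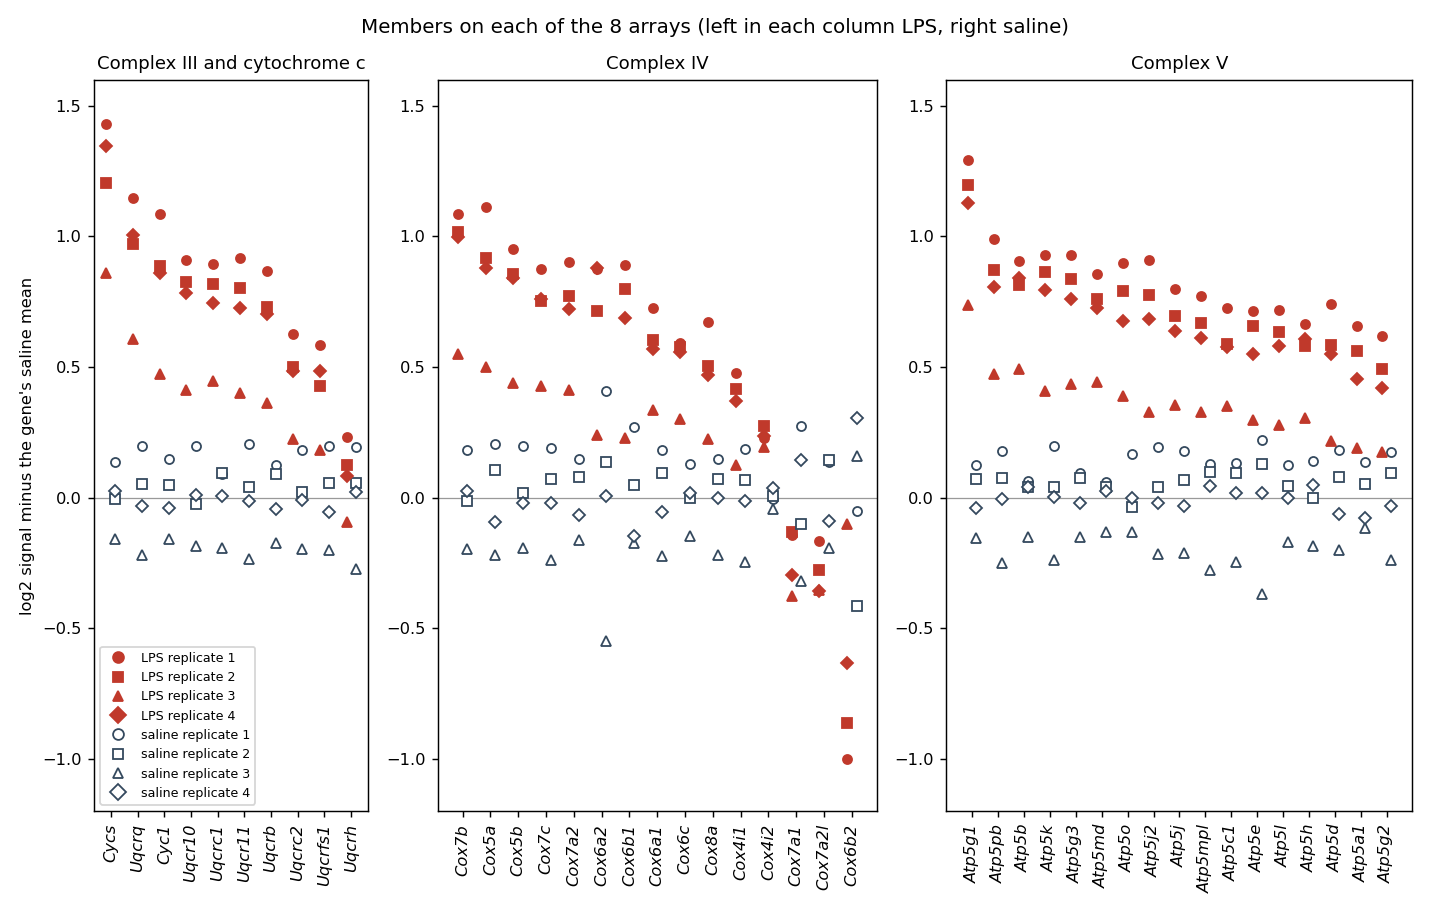
Log2 signal of each tested gene on each of the 8 arrays, minus the mean of that gene over the 4 saline arrays, for complex III with cytochrome c, complex IV and complex V. Filled symbols are LPS arrays and open symbols saline arrays, with 1 symbol shape per replicate number, and Cox8b is left out because its values span a far wider range. In complex V all filled symbols lie above all open symbols of the same gene, while Uqcrh, Cox7a1, Cox7a2l and Cox6b2 stand apart from the rest.

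The arrays differed within each group in a way that touched nearly every member. LPS replicate 3 had the lowest LPS value in 40 of the 43 genes and saline replicate 3 the lowest saline value in 41. The mean difference of the 43 genes from their saline means was 0.69, 0.58, 0.36 and 0.57 on LPS arrays 1 to 4, and 0.17, -0.00, -0.17 and 0.01 on saline arrays 1 to 4. LPS replicate 3 also had the highest median processed signal of the LPS arrays, 17.3 against 11.7 to 13.8 on the others, and saline replicate 3 the highest of all, 21.5 against 15.5 to 18.2 on the other saline arrays. Without LPS replicate 3 the median change was 0.77, with 38 genes higher and 1 lower, and without saline replicate 3 it was 0.55, with 35 higher and 1 lower. Each slide row held 2 LPS and 2 saline arrays. Within row 1 the median change was 0.71 with 20 genes called higher and 2 lower. Within row 2 the median change was 0.59 with 0 called higher, where only 5 of all genes passed. The 38 genes called higher over all arrays had a change above 0 within both rows.

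Promoters of 34 of the 45 genes were matched in RefSeq windows of build GRCm38.p6, each running from 250 bases before to 50 bases after an annotated start. A gene with more than 1 window was counted if any window held the motif. They were searched on both strands for motifs of factors known for nuclear respiratory genes: GCGCANGCG for NRF1, CCGGAAG for ETS factors such as GABPA, and AAGATGGCG for YY1. The NRF1 motif was found for 11 of the 34 genes (32.4%), against 7.03% of all 27025 genes with a window. The ETS motif was also found for 11 (32.4%, against 9.93%), and the YY1 motif for 2 (5.88%, against 1.64%). At least 1 of the 3 was found for 18 of the 34 genes, and NRF1 and ETS motifs stood together in 1 window for 5. Changes of genes with and without a motif are given without a test: the median was 0.69 in the 11 tested genes with the NRF1 motif and 0.66 in the 22 without it, and 0.56 in the 11 with the ETS motif and 0.70 in the 22 without it. A match describes letters and not binding.

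The windows below show the genes whose changes are set against each other in the text: Cycs, the gene that rose most; Uqcrh and Cox7a2l, which did not follow the others; the 3 c ring genes Atp5g1, Atp5g2 and Atp5g3; and Atp5k, in which both motifs occur. They lie at chr6:50566520-50566819 (Cycs), chr4:116075021-116075320 (Uqcrh), chr17:83514284-83514583 (Cox7a2l), chr11:96075582-96075881 (Atp5g1), chr15:102670998-102671297 (Atp5g2), chr2:73911277-73911576 (Atp5g3) and chr5:108434350-108434649 (Atp5k), all on the minus strand. Each is written 5′ to 3′ along the gene, and capitals mark a motif on either strand. Where the NRF1 motif matches on both strands at a shift of 1 base, both matches are in capitals.
Cycs: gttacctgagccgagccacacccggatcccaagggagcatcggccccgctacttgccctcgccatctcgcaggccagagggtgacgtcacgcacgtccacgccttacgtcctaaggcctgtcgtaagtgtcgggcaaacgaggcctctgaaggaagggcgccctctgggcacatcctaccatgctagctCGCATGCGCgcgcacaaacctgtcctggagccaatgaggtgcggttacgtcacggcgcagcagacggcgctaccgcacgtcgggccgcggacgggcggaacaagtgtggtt
Uqcrh: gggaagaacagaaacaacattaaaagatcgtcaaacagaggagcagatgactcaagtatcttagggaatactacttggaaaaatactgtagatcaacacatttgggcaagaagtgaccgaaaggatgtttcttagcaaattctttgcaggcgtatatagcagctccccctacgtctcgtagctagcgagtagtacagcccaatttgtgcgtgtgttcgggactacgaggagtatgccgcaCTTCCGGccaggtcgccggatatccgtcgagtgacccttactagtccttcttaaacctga
Cox7a2l: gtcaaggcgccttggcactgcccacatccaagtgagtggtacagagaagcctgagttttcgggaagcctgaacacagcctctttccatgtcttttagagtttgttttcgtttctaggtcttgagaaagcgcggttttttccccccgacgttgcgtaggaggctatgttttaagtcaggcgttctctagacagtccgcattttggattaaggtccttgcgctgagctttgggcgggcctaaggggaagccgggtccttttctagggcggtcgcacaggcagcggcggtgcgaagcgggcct
Atp5g1: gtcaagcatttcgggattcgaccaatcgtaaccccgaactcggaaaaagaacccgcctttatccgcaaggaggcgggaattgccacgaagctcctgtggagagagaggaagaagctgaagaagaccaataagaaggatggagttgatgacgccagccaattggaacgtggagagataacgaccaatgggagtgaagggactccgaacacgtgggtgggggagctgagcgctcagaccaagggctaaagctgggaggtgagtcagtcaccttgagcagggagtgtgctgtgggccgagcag
Atp5g2: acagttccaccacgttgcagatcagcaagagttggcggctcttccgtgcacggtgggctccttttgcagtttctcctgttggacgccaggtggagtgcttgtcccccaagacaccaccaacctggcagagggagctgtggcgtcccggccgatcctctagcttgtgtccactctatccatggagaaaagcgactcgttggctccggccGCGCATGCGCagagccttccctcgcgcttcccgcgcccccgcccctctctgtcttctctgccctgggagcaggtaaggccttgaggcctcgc
Atp5g3: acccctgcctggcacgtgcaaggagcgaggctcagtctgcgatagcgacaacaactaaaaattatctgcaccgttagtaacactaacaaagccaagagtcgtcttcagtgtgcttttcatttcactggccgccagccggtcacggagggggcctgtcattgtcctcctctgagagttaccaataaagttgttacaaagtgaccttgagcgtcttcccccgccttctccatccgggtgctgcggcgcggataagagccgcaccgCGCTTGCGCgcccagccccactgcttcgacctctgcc
Atp5k: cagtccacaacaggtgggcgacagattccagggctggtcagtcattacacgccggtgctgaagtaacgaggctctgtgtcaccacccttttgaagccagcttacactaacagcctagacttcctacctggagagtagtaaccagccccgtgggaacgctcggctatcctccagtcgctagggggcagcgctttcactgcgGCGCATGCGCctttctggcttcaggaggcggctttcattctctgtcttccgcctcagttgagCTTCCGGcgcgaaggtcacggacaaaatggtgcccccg
The capitals mark the NRF1 motif in Cycs, Atp5g2 and Atp5g3, the ETS motif in Uqcrh, and first NRF1 and then ETS in Atp5k. The windows of Atp5g1, which rose by 1.09, and of Cox7a2l, which fell, hold none of the 3.

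In complex III and cytochrome c, 9 of the 10 genes were higher after LPS and the median change was 0.72. Values below are log2 signal relative to the 75th percentile of the array, in the order of replicates 1 to 4. They do not compare one gene with another, because each probe has its own response. Cycs, somatic cytochrome c, which carries electrons to complex IV and triggers the apoptosome when it leaves the mitochondrion, read 5.91, 5.69, 5.34 and 5.83 on the LPS arrays, against 4.62, 4.48, 4.32 and 4.50 on the saline arrays. The groups stood well apart, and the change of 1.21 ± 0.13 (SE, n = 4 arrays per group, adjusted p = 0.000647) was the largest of the 43, a 2.31-fold increase.

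Among the catalytic subunits of complex III, Cyc1, the cytochrome c1 that hands electrons to cytochrome c, read 5.90, 5.71, 5.29 and 5.68 after LPS, against 4.96, 4.87, 4.66 and 4.78 after saline. It rose by 0.83 ± 0.14 (adjusted p = 0.00218), with no overlap. Uqcrfs1, the Rieske iron-sulfur protein, the other catalytic subunit of nuclear origin, read 4.21, 4.05, 3.81 and 4.11 after LPS, against 3.82, 3.68, 3.42 and 3.57 after saline. Its lowest LPS array lay just below its highest saline array, and its change was 0.42 ± 0.12 (adjusted p = 0.0194). That call was lost with quantile normalization (0.16, adjusted p = 0.061), with the median signal as a covariate (0.17) and without LPS replicate 1, LPS replicate 4 or saline replicate 4 (adjusted p = 0.053 to 0.054).

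The core proteins and small subunits of complex III split into a majority that rose and 1 that did not. Uqcrq, a small subunit that contacts cytochrome b, read 7.59, 7.42, 7.06 and 7.45 after LPS, against 6.65, 6.50, 6.23 and 6.42 after saline, a rise of 0.93 ± 0.14 (adjusted p = 0.00144). Uqcr10, another small subunit, read 7.05, 6.96, 6.55 and 6.92 after LPS, against 6.33, 6.11, 5.95 and 6.15 after saline, a rise of 0.73 ± 0.13 (adjusted p = 0.00286). The groups did not overlap in either gene. The core protein genes Uqcrc1 and Uqcrc2 rose by 0.73 and 0.46, and Uqcr11 and Uqcrb by 0.71 and 0.67. Uqcrh, the hinge protein that helps cytochrome c1 meet cytochrome c, read 6.93, 6.83, 6.61 and 6.79 after LPS, against 6.90, 6.76, 6.43 and 6.73 after saline. Its groups overlapped throughout and its change was 0.09 ± 0.12 (adjusted p = 0.549). With quantile normalization it was called lower (-0.27, adjusted p = 0.00616).

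In complex IV the common subunits rose and the tissue-restricted isoforms varied. Of 16 genes tested, 12 were higher and 2 lower, with a median of 0.53. Cox7b, a subunit of the nuclear shell of the enzyme, read 5.93, 5.86, 5.40 and 5.84 after LPS, against 5.03, 4.83, 4.65 and 4.87 after saline, a rise of 0.91 ± 0.14 (adjusted p = 0.00156). Cox5a, a subunit on the matrix side, read 6.93, 6.73, 6.31 and 6.69 after LPS, against 6.02, 5.92, 5.59 and 5.72 after saline, a rise of 0.85 ± 0.15 (adjusted p = 0.00275). Cox5b, which carries the zinc site of the enzyme, read 6.09, 5.99, 5.57 and 5.98 after LPS, against 5.33, 5.15, 4.94 and 5.12 after saline, a rise of 0.77 ± 0.13 (adjusted p = 0.00257). In all 3 genes every LPS array was above every saline array. Cox7c followed with 5.07, 4.95, 4.62 and 4.96 after LPS, against 4.39, 4.27, 3.96 and 4.18 after saline (0.70 ± 0.13, adjusted p = 0.00315), and Cox6c rose by 0.51.

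Cox4i1, the common isoform of subunit 4, where ATP binds and slows the enzyme, had the smallest change of the common subunits called higher. It read 7.57, 7.51, 7.22 and 7.46 after LPS, against 7.28, 7.16, 6.85 and 7.08 after saline, so LPS replicate 3 lay inside the saline range. The change was 0.35 ± 0.12 (adjusted p = 0.039). It was 0.02 with quantile normalization (adjusted p = 0.805), 0.10 with the median signal as a covariate, and not called without any one of LPS replicates 1, 2 and 4 or saline replicates 2, 3 and 4 (adjusted p = 0.059 to 0.099). Cox4i2, the isoform of lung and of oxygen-sensing cells, was dim, at -1.56, -1.52, -1.60 and -1.56 after LPS, against -1.79, -1.78, -1.83 and -1.75 after saline. The groups were tight and did not overlap, at 0.23 ± 0.06 (adjusted p = 0.014), but scaling on the probes bright on every array left 0.08 (adjusted p = 0.236).

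Subunits 6A, 6B and 8 each had a common and a tissue-restricted isoform on the array. Cox6a1, the common form of 6A, read 8.77, 8.65, 8.38 and 8.61 after LPS, against 8.23, 8.14, 7.82 and 7.99 after saline (0.56 ± 0.12, adjusted p = 0.00606). Cox6a2, its heart and muscle form, read 1.49, 1.33, 0.85 and 1.49 after LPS, against 1.02, 0.75, 0.06 and 0.62 after saline, with LPS replicate 3 inside the saline range (0.68 ± 0.22, adjusted p = 0.0352). The call for Cox6a2 was lost under several alternatives, among them the covariate (0.18) and leaving out any one array other than LPS replicate 3 or saline replicate 1 (adjusted p = 0.052 to 0.088). Cox6b1, the common form of 6B on the side facing cytochrome c, read 3.95, 3.85, 3.28 and 3.74 after LPS, against 3.32, 3.10, 2.88 and 2.91 after saline (0.65 ± 0.16, adjusted p = 0.0123), with LPS replicate 3 just below saline replicate 1. The covariate left 0.30 for Cox6b1 (adjusted p = 0.0786). Its testis form Cox6b2 read -0.53, -0.39, 0.38 and -0.16 after LPS, against 0.42, 0.06, 0.63 and 0.78 after saline. Here LPS replicate 3 was the highest of the LPS arrays, and the change was -0.65 ± 0.22 (adjusted p = 0.0414). The covariate left -0.17 for Cox6b2 (adjusted p = 0.471), and without any one array other than LPS replicate 3 or saline replicate 2 it was not called (adjusted p = 0.069 to 0.107).

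Cox8a, the common form of subunit 8, read 8.04, 7.87, 7.59 and 7.84 after LPS, against 7.52, 7.44, 7.15 and 7.37 after saline, a rise of 0.47 ± 0.12 (adjusted p = 0.0131) with no overlap. Cox8b, its heart and muscle form, read -5.81, -6.34, -2.22 and -5.31 after LPS, against -4.18, -6.52, -3.51 and -4.03 after saline. It was well above background on 1 LPS array and 3 saline arrays, so these values are close to the limit of the array and were not informative on a change (-0.36 ± 0.98, adjusted p = 0.773).

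In the subunit 7A family 1 gene rose, 1 fell and 1 did not pass the test. Cox7a2, the common form, read 6.39, 6.26, 5.90 and 6.21 after LPS, against 5.64, 5.57, 5.33 and 5.43 after saline (0.70 ± 0.12, adjusted p = 0.00268). Cox7a1, the heart and muscle form, read 0.64, 0.65, 0.40 and 0.48 after LPS, against 1.05, 0.68, 0.46 and 0.92 after saline (-0.24 ± 0.14, adjusted p = 0.18). Cox7a2l, a related protein that ties complexes III and IV into supercomplexes and that C57BL/6 mice carry in a shortened form, read 6.59, 6.48, 6.41 and 6.40 after LPS, against 6.89, 6.90, 6.56 and 6.67 after saline. Its highest LPS array lay just above its lowest saline array, and the change was -0.29 ± 0.10 (adjusted p = 0.0421). With scaling to each array's median, which moved the median of all genes to 0.24, the change of Cox7a2l was -0.07 (adjusted p = 0.743). It was -0.65 with quantile normalization (adjusted p = 0.000434), and leaving out any one array other than LPS replicate 1 or saline replicate 3 ended the call (adjusted p = 0.062 to 0.102).

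All 17 genes of complex V were higher after LPS, each with every LPS array above every saline array, and the median change was 0.62. The F1 head, where ATP is made, is represented by Atp5b, the catalytic beta subunit. It read 7.88, 7.79, 7.47 and 7.81 after LPS, against 7.04, 7.02, 6.82 and 7.02 after saline, a rise of 0.76 ± 0.11 (adjusted p = 0.00124). The other head genes, Atp5a1 (alpha), Atp5c1 (gamma), Atp5d (delta) and Atp5e (epsilon), rose by 0.47 to 0.56. In the peripheral stalk, which keeps the head from turning, Atp5pb (subunit b) read 6.31, 6.20, 5.80 and 6.13 after LPS, against 5.50, 5.40, 5.08 and 5.32 after saline (0.79 ± 0.14, adjusted p = 0.00257). The other stalk genes Atp5o, Atp5j and Atp5h rose by 0.69, 0.62 and 0.54.

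Among the membrane subunits, Atp5k (subunit e, which helps ATP synthase form dimers) read 6.49, 6.42, 5.96 and 6.35 after LPS, against 5.76, 5.60, 5.32 and 5.56 after saline (0.75 ± 0.14, adjusted p = 0.00352). Atp5md, Atp5j2, Atp5mpl and Atp5l, which encode further small membrane subunits, rose by 0.70, 0.67, 0.60 and 0.55. With quantile normalization 14 of the 17 genes of complex V were called higher, with a median of 0.26. Atp5a1, Atp5e and Atp5g2 were the 3 that lost the call, with changes of 0.11 (adjusted p = 0.133), 0.20 (adjusted p = 0.071) and 0.11 (adjusted p = 0.12).

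The c ring, the rotor that protons turn, is encoded by 3 genes that make the same mature protein from different precursors, and all 3 rose. Atp5g1 read 6.84, 6.74, 6.28 and 6.68 after LPS, against 5.67, 5.62, 5.39 and 5.51 after saline, a rise of 1.09 ± 0.13 (adjusted p = 0.000839), or 2.13-fold. Atp5g3 read 7.01, 6.92, 6.52 and 6.84 after LPS, against 6.18, 6.16, 5.93 and 6.06 after saline (0.74 ± 0.12, adjusted p = 0.00199). Atp5g2 read 7.66, 7.54, 7.22 and 7.46 after LPS, against 7.22, 7.14, 6.80 and 7.01 after saline (0.43 ± 0.13, adjusted p = 0.0228), so its groups only just separated. Leaving out any one of LPS replicates 1, 2 and 4 or saline replicates 3 and 4 ended the call for Atp5g2 (adjusted p = 0.052 to 0.061).

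Whether 2 related genes changed unequally was tested within each array, where a scaling by 1 factor per array cancels. The difference between the genes was compared between 4 LPS and 4 saline arrays with a two-sided exact permutation test over 70 arrangements, whose smallest p is 0.0286. Of 8 pairs measured, 4 had that smallest p. Cox7a2l minus Cox7a2 was 0.19 to 0.50 on the LPS arrays and 1.23 to 1.33 on the saline arrays, a change of -0.99 ± 0.08. Cox7a1 minus Cox7a2 changed by -0.94 ± 0.12, Atp5g2 minus Atp5g1 by -0.66 ± 0.05 and Atp5g3 minus Atp5g1 by -0.35 ± 0.02, each without overlap. Adjusted over the 8 pairs, p was 0.0571 for each of these 4, so none passed 0.05. With quantile normalization these 4 differences were -0.98, -0.62, -0.63 and -0.35, each with the smallest p.

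The remaining pairs separated less. Cox6b2 minus Cox6b1 changed by -1.30 ± 0.41 (exact permutation p = 0.0571, adjusted 0.0914), and its groups overlapped through LPS replicate 3. Cox4i2 minus Cox4i1 changed by -0.11 ± 0.11 (exact p = 0.343), Cox6a2 minus Cox6a1 by 0.12 ± 0.14 (exact p = 0.514) and Cox8b minus Cox8a by -0.83 ± 1.23 (exact p = 0.514). The Cox8b probe is dim. Quantile normalization, which rescales dim and bright probes differently and so does not cancel within a pair, turned Cox4i2 minus Cox4i1 to 0.34 (exact p = 0.0286), so the direction of that pair rests on the processing. With the median signal as a covariate Cox4i2 minus Cox4i1 was 0.11, Cox6a2 minus Cox6a1 -0.12 and Cox6b2 minus Cox6b1 -0.46. These settings were added for the pairs after seeing the data. The pairs of Cox7b2 with Cox7b and of Cyct, the testis cytochrome c, with Cycs were not measured because Cox7b2 and Cyct did not pass the filter.

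**Figure D2:**
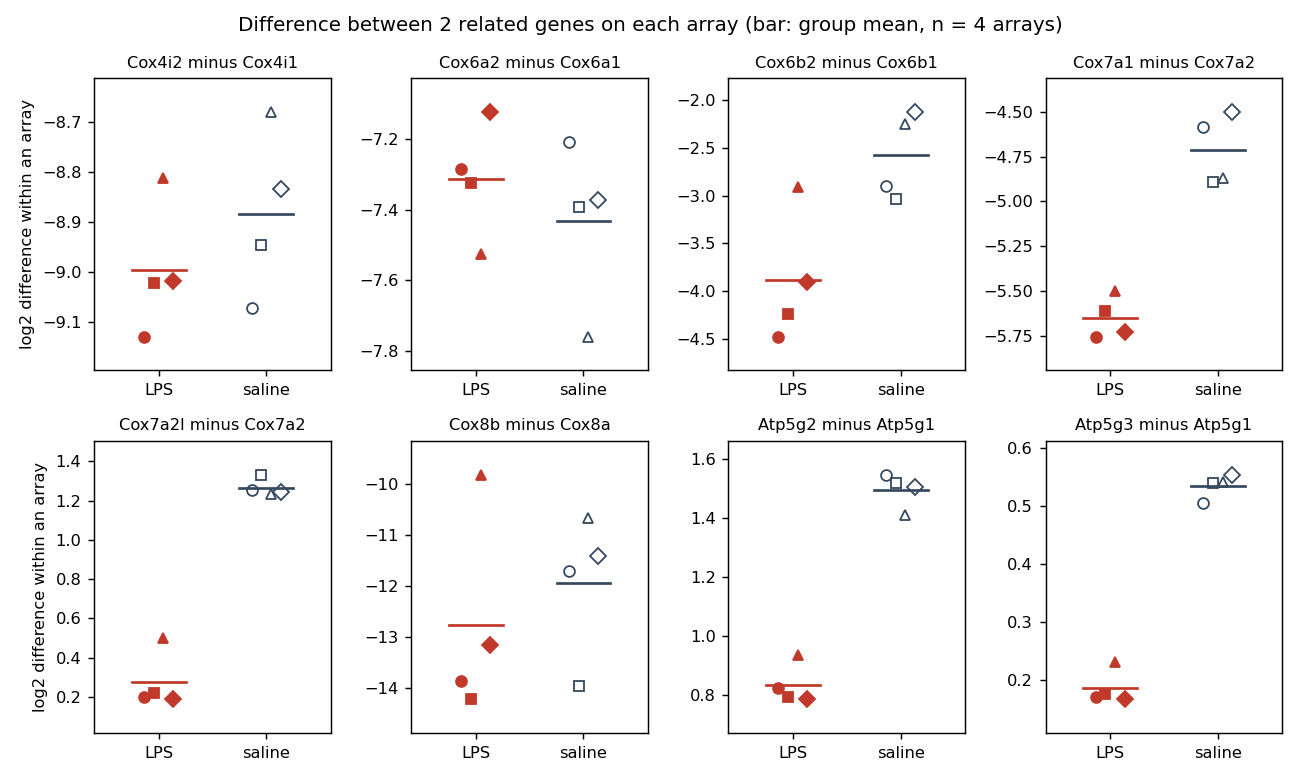
Difference in log2 signal between 2 related genes on the same array, in LPS arrays (left, filled) and saline arrays (right, open), with a bar at the mean of 4 arrays and a separate vertical scale in each panel. Only the change between the groups can be read, since the height also holds the response of the 2 probes. The groups stand clear of each other for Cox7a1, Cox7a2l, Atp5g2 and Atp5g3 against their partners, and overlap in the other 4 pairs.

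Different probes of a gene mostly moved alike. Of 15 genes with more than 1 tested probe, 11 had the same call for all their probes, 4 had at least 1 probe that did not pass the test, and 0 had probes called in opposite directions. For Cycs the second probe rose by 0.82, against 1.21 for the brighter one. The 3 probes of Atp5g1 rose by 1.09 at chr11:95934315-95934374 and 1.13 at chr11:95934924-95934983, while the one at chr11:95930317-95930376 changed by -0.22 (adjusted p = 0.0599), in coordinates of build mm9 on the minus strand as the files give them. Averaging the probes left the difference between Atp5g2 and Atp5g1 at -0.24, with an exact permutation p of 0.0571. A dimmer probe did not pass the test for Atp5g3 (0.20), Atp5j2 (-0.00) and Uqcrb (0.06). Many of these genes have processed pseudogenes, and hybridisation of their transcripts to the probes was not tested.

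The complexes also need mitochondrially encoded subunits and assembly factors. The lists that follow were drawn up with earlier results of these data known. Of the mitochondrially encoded subunits, 3 were on the array under their names. COX1, the catalytic core of complex IV, read 8.22, 8.39, 7.95 and 8.35 after LPS, against 7.53, 7.78, 7.74 and 7.72 after saline, a rise of 0.53 ± 0.11 (adjusted p = 0.00583). It was 0.25 with quantile normalization (adjusted p = 0.0962). CYTB, the cytochrome b of complex III, read 8.39, 8.39, 8.26 and 8.30 after LPS, against 8.31, 8.46, 8.13 and 8.29 after saline (0.04 ± 0.09, adjusted p = 0.746). ATP8, a membrane subunit of ATP synthase, read 6.52, 6.50, 6.23 and 6.34 after LPS, against 6.50, 6.51, 6.12 and 6.18 after saline (0.07 ± 0.12, adjusted p = 0.634). For both genes the groups overlapped, and both were called lower with quantile normalization (-0.21 and -0.29).

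Assembly factors rose in part. For complex IV, 19 of 23 factors were higher and 0 lower, with a median of 0.44, led by Taco1, which activates translation of COX1 (0.95 ± 0.10, adjusted p = 0.000599), and Cmc2 (0.91 ± 0.13, adjusted p = 0.00149). With the median signal as a covariate 12 of the 23 were higher. The copper chaperone Cox17 (0.12) did not pass the test. For complex III, 3 of 6 were higher, among them Uqcc2, needed to make cytochrome b (0.97 ± 0.14, adjusted p = 0.00154), and Bcs1l, which inserts the Rieske protein (0.64 ± 0.11, adjusted p = 0.00292). For ATP synthase, 3 of 4 were higher, including Atpif1, the inhibitor that stops ATP synthase from running backwards (0.55 ± 0.13, adjusted p = 0.00846), and Atpaf2, which assembles the head (0.52). With normexp background correction, whose added offset shrinks the changes of dim genes, Taco1 was at 0.46.

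Genes associated with complex IV under other names went both ways. AA467197, which encodes a relative of Ndufa4 that takes its place in complex IV of inflamed cells, read -0.71, -0.81, -0.62 and 0.09 after LPS, against -2.79, -2.03, -2.45 and -2.35 after saline. The gap between the groups was wider than for any member, and the rise was 1.89 ± 0.23 (adjusted p = 0.000852), or 3.71-fold, or 1.09 with normexp background correction. Ndufa4 itself read 5.10, 5.06, 4.76 and 5.04 after LPS, against 4.31, 4.23, 4.09 and 4.25 after saline, and also rose (0.77 ± 0.10, adjusted p = 0.000976). Ndufa4l2, another relative, read -1.50, -1.62, -1.17 and -1.24 after LPS, against -0.39, -0.60, -0.09 and -0.28 after saline, a fall (-1.04 ± 0.14, adjusted p = 0.00116). Higd1a, which binds complex IV under low oxygen, rose (0.85 ± 0.13, adjusted p = 0.0018) and its relative Higd1b fell (-0.90 ± 0.10, adjusted p = 0.000723). The falls were smaller under other settings. The largest among the 7 tested genes of this list was -0.64 with normexp background correction and -0.79 with the median signal as a covariate.

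Ndufa4l2 and Higd1b are also known from pericytes. Of 10 markers of pericytes and smooth muscle, Higd1b among them, 7 fell and 1 rose, with a median of -1.03. Their summed signal, relative to the 75th percentile of the array, was 77.0 to 89.8 after LPS and 74.0 to 79.8 after saline. The brightest markers weigh most in this sum, so it does not show the fall of the others. The mean log2 difference of the 10 markers from their saline means was -1.24, -1.05, -0.57 and -0.77 on LPS arrays 1 to 4. On saline arrays 1 to 4 it was -0.07, -0.25, 0.21 and 0.12. The part of these cells in the fall of Ndufa4l2 and Higd1b was not tested.

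Other nuclear genes of the respiratory chain and the mitochondrial ribosome were also mostly higher. All 4 complex II subunits were higher (median 0.44), led by Sdhb, its iron-sulfur subunit (0.82 ± 0.14, adjusted p = 0.00224). Of 38 complex I subunits 36 were higher and 0 lower (median 0.64), and of 78 mitochondrial ribosomal proteins 75 were higher and 0 lower (median 0.65). These sizes also depended on the scaling. Quantile normalization gave 31 higher and 1 lower for complex I (median 0.31). For the mitochondrial ribosome it gave 68 higher and 1 lower (median 0.48), and for complex II a median of 0.18. The covariate gave 34 higher for complex I (median 0.40) and 60 for the mitochondrial ribosome (median 0.43). Cytosolic ribosomal proteins, which are also bright, had 52 of 87 higher and 1 lower, with a median of 0.33. With quantile normalization 22 were higher and 5 lower (median 0.05), with the median signal as a covariate 20 were higher (median 0.10), and leaving out 1 array gave 24 to 76 higher: 24 to 27 without LPS replicate 1, 2 or 4 or saline replicate 3 or 4, and 76 without LPS replicate 3. Of 19 glycolytic enzymes, 8 were higher and 5 lower, against 27.8% and 21.5% of all genes tested. This count depended on the scaling and on single arrays, with 10 higher and 0 lower with scaling to each array's median, 6 higher and 6 lower with quantile normalization (median -0.08, against 0.27 as reported), and 7 to 11 higher and 1 to 4 lower on leaving out 1 array, the 1 without LPS replicate 1 or 2. In the reported setting Gapdh (0.96) and Pkm (0.81) rose most, and Aldoc (-0.53), also an astrocyte gene, and Eno2 (-0.47), also a neuronal gene, fell most.

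Of 12 regulators of mitochondrial biogenesis, 4 were higher and 1 lower, with a median of 0.16. The share of them higher was near that over all genes (27.8%), and the share lower was below it (21.5%). With the median signal as a covariate 2 were higher and 0 lower. The mitochondrial transcription genes Tfb1m (0.53 ± 0.11, adjusted p = 0.00499), Polrmt (0.48 ± 0.08, adjusted p = 0.00265) and Tfam (0.33 ± 0.08, adjusted p = 0.0108) rose. Ppargc1a, the coactivator PGC-1alpha, was dim at -3.07, -3.31, -1.82 and -2.36 after LPS, against -1.83, -2.02, -1.31 and -1.46 after saline. LPS replicate 3 lay inside the saline range. The change of Ppargc1a was -0.98 ± 0.33 (adjusted p = 0.0367) and -0.28 with the median signal as a covariate (adjusted p = 0.434), and leaving out any one array other than LPS replicate 3 or saline replicate 2 ended the call (adjusted p = 0.052 to 0.095). Nrf1 (0.17) and Gabpa (0.15), whose motifs are marked in the promoters above, did not pass the test, and Yy1 rose by 0.24 (adjusted p = 0.0302).

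**Figure D3:**
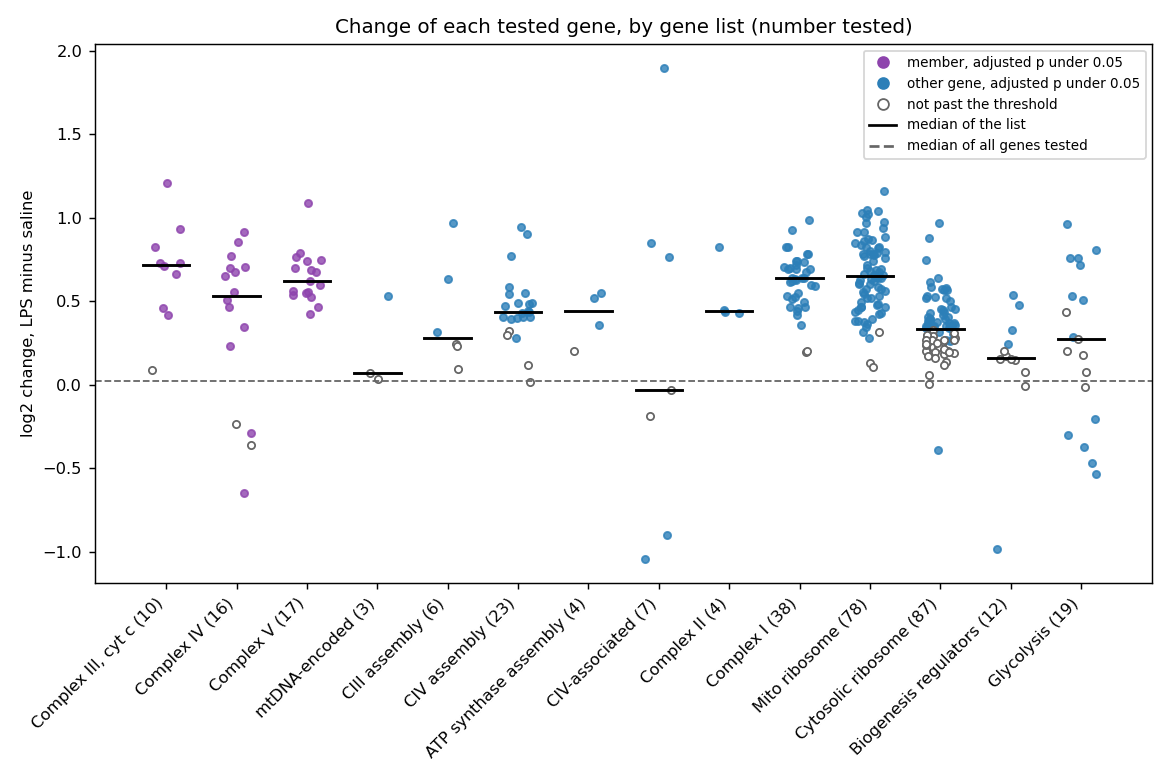
Change of each tested gene on the log2 scale, LPS minus saline, for the 3 complexes and 11 other gene lists, with the number tested in brackets. Filled points passed an adjusted p of 0.05, open points did not, a black bar is the median of the list and the dashed line the median of all genes tested. Points of the 3 complexes lie mostly between 0.4 and 1, as do those of complex I and the mitochondrial ribosome, while mitochondrially encoded subunits and biogenesis regulators lie lower.

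Markers of several cell types differed between the groups, and their values stand beside every change above. The label was checked against 10 microglia markers, which all passed the filter and whose summed signal, relative to the 75th percentile of the array, was 1742 to 2027 on the LPS arrays and 1664 to 1988 on the saline arrays. Of these 10 markers, 2 rose and 4 fell, where the number that fell depended on the scaling (1 with each array's median, 6 with the probes bright on every array and 7 with quantile normalization). Itgam, the gene of CD11b, rose by 0.66 ± 0.10 (adjusted p = 0.00177). Of 6 monocyte markers 5 rose, with a summed signal of 44.2 to 78.5 on the LPS arrays and 12.4 to 16.6 on the saline arrays. Of 7 neutrophil markers 3 rose, with sums of 167 to 296 on the LPS arrays and 68.6 to 160.1 on the saline arrays. All 9 markers of cycling cells rose (median 0.99), with sums of 217 to 315 on the LPS arrays and 132 to 149 on the saline arrays. Markers of other brain cells fell, with 7 of 8 for astrocytes (sums of 15.7 to 21.0 on the LPS arrays and 28.1 to 33.7 on the saline arrays), 6 of 8 for the oligodendrocyte lineage and 4 of 6 for endothelium. With scaling to each array's median these 3 counts were 5, 4 and 2, and with the median signal as a covariate 3, 5 and 2. Of 6 neuronal markers tested 1 rose and 1 fell, of 4 markers of T and NK cells 1 rose, and all 3 erythroid markers tested fell. Slc17a7, Cd8a and Ncr1 were not well above background on any array. The part of these cells in the changes of the complexes was not tested.

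**Figure D4:**
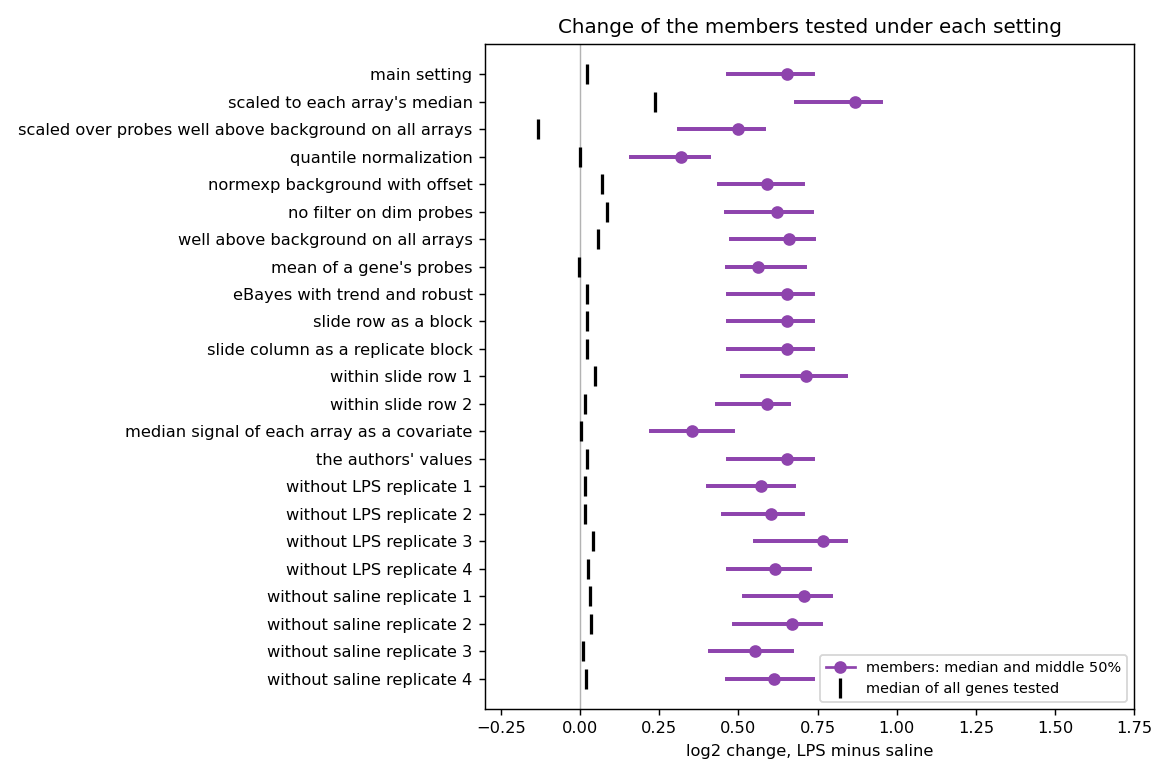
Change of the members on the log2 scale, LPS minus saline, under each way of processing the arrays, with the median (point) and the middle 50% of members (line), and the median of all genes tested (tick). The members' median ran from 0.32 with quantile normalization to 0.87 with scaling to each array's median, and under each setting shown it lay above the median of all genes.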

How the data were processed

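Gene expression was measured on 8 Agilent 1-colour arrays, 4 after LPS and 4 after saline. The submitters' processing notes name Agilent Feature Extraction 12.0.3.1 for reading the spots, and the deposited scanner files hold intensity values, background-subtracted per the file headers and not scaled between arrays. The log2 values of the deposited series table tracked the scanner values on each array (correlations of at least 0.99996): they are shifted by the 75th percentile of each array and centred on each probe, with the direction of the scanner values and column medians of -0.07 to 0.08.

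Control and outlier spots were left out, and 6 of 56605 probes had no usable spot. Probe names were updated through RefSeq accessions in a table of assembly GRCm38.p6 (36126 probes), symbols (8502) or synonyms (22), and 11949 kept the file's name. Values are log2 processed signal minus the 75th percentile of each array. Probes well above background on at least 4 arrays were kept (35494), with the brightest probe of each gene (22512 genes). Groups were compared with limma 3.58.1 in R 4.3.3, which was tested on simulated data, with Benjamini-Hochberg adjustment at 0.05. In the simulated data 21 of 50 genes with a log2 change of 0.5 were recovered. At changes of 1, 2 and 4 it was 41, 47 and 50 of 50, so small changes can be missed. Plots were made in Python 3.11.15 with matplotlib 3.10.9. The share of probes well above background was 58.6% to 63.2% after LPS and 61.9% to 66.0% after saline, and the number of arrays limits the precision.

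The members and gene lists were chosen with earlier results of these data known. Genes given with every array's value were, per complex, up to 4 with the largest increase and 4 with the largest decrease among called genes without overlap, both genes of each measured pair, 8 genes named in advance and, from other lists, up to 2 called genes per direction, or the 2 brightest where none was called, beside 7 always named. Uqcrh and further single genes were added after their values were seen. The labels number no replicates, so the numbers only name the arrays, and no 2 arrays held the same values. Alternatives covered scaling, background correction, the filter, the choice of probe, the variance model, slide row and column, the median signal as a covariate, the deposited log2 values and the omission of each array in turn.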

Additional observations from a re-analysis of the deposited data

Results flagged for a closer look

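Within groups of 4 arrays, 3 of 86 had a value far from the other 3, judged by its gap to the nearest value against the range of the group. Chance gives about 1 such group in 20, so 3 of 86 was not above that share. Cox6c read 5.95 on LPS replicate 3, with the other LPS arrays between 6.21 and 6.24. Cox7b read 5.40 on LPS replicate 3, with the next LPS array at 5.84. Atp5b read 6.82 on saline replicate 3, with the next saline array at 7.02. In all 3 the value far from the others was the lowest of its group, on an array with the highest median signal of its group. The genes share these arrays, so the groups are not independent. LPS replicate 3 and saline replicate 3 were the lowest of their group in 40 and 41 of the 43 genes.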

How the results depend on the processing

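Of the 38 increases, 30 were called under each of the 20 alternatives other than the splits by slide row. The 8 that were lost under at least 1 were Atp5a1, Atp5e, Atp5g2, Cox4i1, Cox4i2, Cox6a2, Cox6b1 and Uqcrfs1. The median change of the members was 0.87 with scaling to each array's median, 0.50 with scaling on the probes bright on every array, 0.32 with quantile normalization and 0.35 with the median signal as a covariate, against 0.65 as reported. Over all genes these settings gave medians of 0.24, -0.13, -0.00 and 0.00, and the share of all tested genes called higher and lower was 31.0% and 11.6% with the first and 21.5% and 32.2% with the next, against 27.8% and 21.5% as reported. The 2 decreases were 0 with scaling to each array's median, with no filter and with slide row as a block, and 1 with the covariate. Within slide row 1, 5591 of all genes were called, with 20 members higher and 2 lower. Both of these 2 were tissue-restricted isoforms of complex IV, so Cox7a2l was not among them. Within row 2, with 2 arrays against 2, 5 of all genes were called, with 0 members higher and 0 lower. A replicate block made from slide column, which matches the array numbers used here and which no label supports as a pairing, called 13620 of all genes and the same numbers of members, 38 higher and 2 lower. Leaving out 1 array gave 8722 to 13261 of all genes, 34 to 38 members higher, 0 to 1 lower and a median of 0.55 to 0.77.

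Among the members and the other genes named with every array's value, sign changes were seen only in Cox8b, Uqcrh, CYTB and ATP8, which did not pass the test in the reported setting. Among the pairs, under 2 settings added after seeing the data, Cox4i2 minus Cox4i1 (-0.11 as reported) was 0.34 with quantile normalization (exact permutation p = 0.0286) and 0.11 with the covariate, and the covariate gave -0.12 for Cox6a2 minus Cox6a1 and 1.52 for Cox8b minus Cox8a, against 0.12 and -0.83. Cox8b was at 0.12 with normexp background correction, -1.98 within row 1, 1.26 within row 2, 1.73 with the covariate and -1.26 to 0.11 without 1 array. Scaling on the probes bright on every array, quantile normalization and the covariate gave -0.068, -0.27 and -0.15 for Uqcrh, -0.12, -0.21 and -0.11 for CYTB, and -0.083, -0.29 and -0.18 for ATP8, and CYTB was at -0.053 within row 2. Without 1 array Uqcrh ran from -0.0034 to 0.15 and CYTB from -0.021 to 0.090. The causes were not tested. Dim signal limits Cox8b, and 2 members could not be tested.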
